A study of Mus musculus with 6 samples.

Results

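Ciliated cells of the mouse lung were described from 4 single-cell libraries, in which 1674 of 70426 lung barcodes that passed the limits on depth and mitochondrial share were counted as members (78318 barcodes passed in the whole series, cortex included). A barcode was chosen by at least 3 of 6 genes having a UMI (a unique molecular identifier, which marks 1 captured transcript): Foxj1, Cfap126, Ak7, Dynlrb2, Cfap44 and Dnah5. It also had at least 1500 UMIs in the Bdnf libraries or 700 in the Hgf libraries, at most 25% of its UMIs from mitochondrial genes, and at most 1 UMI in total over Pecam1, Cldn5, Col1a2, Ptprc, Etv5 and Rtkn2, which mark endothelial cells, fibroblasts, leukocytes and alveolar epithelium. Because the members were selected on measured values, the levels of these 12 genes are a description and support nothing.

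The libraries came from lungs taken on postnatal day 21. Bdnf iPCKO and Hgf iPCKO mice carried floxed Bdnf or Hgf alleles and the Pdgfrb(BAC)-CreERT2 transgene, which acts in PDGFRβ-expressing cells such as pericytes, the mural cells of capillaries. Their controls were Bdnf lox/lox or Hgf lox/lox littermates without CreERT2, and all received 50 µg tamoxifen on each of postnatal days 1 to 3. Each library pooled 2 mice of 1 genotype after depletion of CD45+ cells and erythrocytes, so each group is 1 library and no difference between genotypes has a replicate. No test was therefore made, and the 95% intervals cover counting error only.

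Airway ciliated cells carry many motile cilia that sweep mucus out of the airways. Each motile cilium is built on a microtubule axoneme, in which outer and inner dynein arms drive bending, the nexin-dynein regulatory complex and radial spokes coordinate the motors, and a central pair of microtubules runs along the middle. FOXJ1 and the RFX factors switch on the genes of this apparatus, intraflagellar transport carries its parts to the tip, and the many basal bodies of a cell arise beforehand by centriole amplification from deuterosomes.

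The Bdnf control library held 257 members among 16748 barcodes (1.53%, exact Clopper-Pearson interval 1.35 to 1.73). The Bdnf iPCKO library held 480 of 23765 (2.02%, 1.84 to 2.21). The Hgf control library held 281 of 14095 (1.99%, 1.77 to 2.24), and the Hgf iPCKO library held 656 of 15818 (4.15%, 3.84 to 4.47). The share in Hgf iPCKO lungs was thus 2.08-fold that of its control, against 1.32-fold in the Bdnf pair and 1.30-fold between the Hgf and Bdnf control libraries. In dissociated tissue, a larger share can come from more ciliated cells, from fewer cells of other types or from unequal recovery, and these cannot be told apart. With the mitochondrial limit lowered to 10%, the Hgf share ratio was 1.40 on the log2 scale in place of 1.06, and the ratio between the control libraries turned from 0.38 to -0.95. The shares also depend on the limit for UMIs of other cell types. Before that limit, 475 of 16748 barcodes in Bdnf control and 983 of 23765 in Bdnf iPCKO had at least 3 of the genes. In Hgf control 385 of 14095 did, and in Hgf iPCKO 851 of 15818. The limit set aside 45.9 and 51.2% of them in the Bdnf libraries, against 27.0 and 22.9% in the Hgf libraries.

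**Figure D1:**
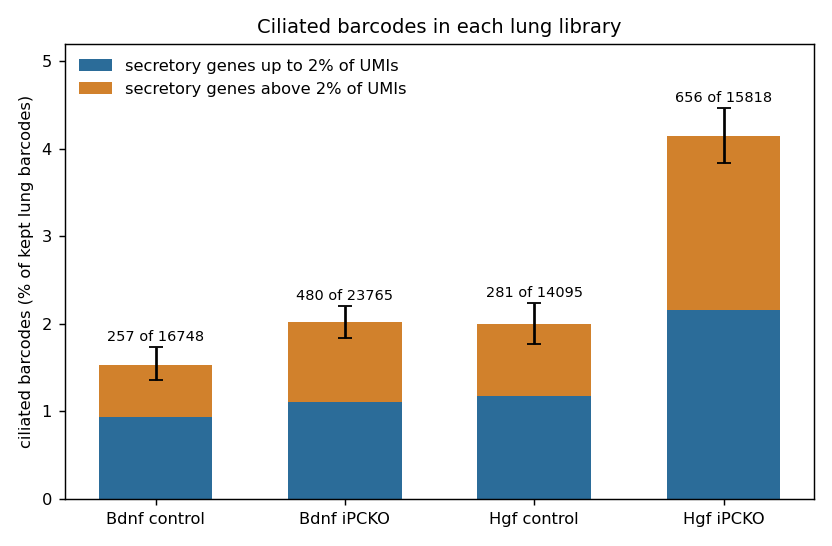
Ciliated barcodes as a percent of all kept barcodes in each of the 4 lung libraries, with bars stacked by whether secretory airway genes gave at most 2% or more than 2% of a barcode's UMIs, and with 95% Clopper-Pearson intervals of the total. The Hgf iPCKO bar reaches 4.15%, above the 1.53 to 2.02% of the other libraries, and both segments are taller there. The limit for UMIs of other cell types set aside 51.2% of barcodes with at least 3 of the genes in Bdnf iPCKO and 22.9% in Hgf iPCKO.

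The lung libraries held between 69403166 and 186701379 UMIs, and members were deeper than other barcodes: their median was 13418, 10906, 10814 and 9124 UMIs in the Bdnf control, Bdnf iPCKO, Hgf control and Hgf iPCKO libraries, the order kept below wherever 4 values are given. The median over all kept barcodes was 7191, 5085, 3988 and 2860. Summed over members, 3991908, 6428980, 3201664 and 6501772 UMIs stand behind the levels, which are given as CPM, the UMIs of a gene scaled to the UMIs of all genes in the members of a library. No barcode sequence was shared by members of 2 libraries. Between pairs of libraries, 1.56 to 2.58% of kept barcodes were shared, and 1 to 10 member barcodes of the first library were kept in the second. With so few members, the absence of shared members is not read as a difference from the kept barcodes.

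Members near the limit of 3 genes were few in all libraries but Hgf iPCKO. All 6 genes were detected in 195 members (75.9%), 336 (70.0%), 180 (64.1%) and 196 (29.9%), and exactly 3 were detected in 11, 13, 11 and 88. A further 36, 66, 24 and 59 barcodes had 2 of the genes and met every other limit. Those with 3 genes held a median of 6, 5, 4 and 9.5 UMIs over the 6 genes, those with 2 genes a median of 2, 2, 2 and 3, and members as a whole a median of 44, 30, 33 and 22. The Hgf iPCKO library thus differed from the other 3 in how many members lacked at least 1 gene, and Dnah5 was the gene it lacked most. Among all barcodes with 3 or more of the genes and an allowed mitochondrial share, 218 (45.9%), 503 (51.2%), 104 (27.0%) and 195 (22.9%) were set aside for more than 1 UMI of the 6 genes of other cell types. These had a higher median of 20768, 15764, 13413 and 11840 UMIs.

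The deleted genes were almost undetected in ciliated cells of every library. Bdnf, which encodes a neurotrophin, was at 0.501, 0.467, 0.312 and 0.615 CPM, and Hgf, which encodes hepatocyte growth factor, was at 0.251, 0.156, 0.312 and 0 CPM, where a count of 0 allows up to 0.461 CPM. At these levels, 0 to 4 UMIs per library, no difference between genotypes was detectable. Ntrk2, the receptor of BDNF, was at 1.75, 0.700, 0.625 and 0.308 CPM. Met, the receptor of HGF, was at 46.9, 39.8, 30.3 and 22.8 CPM in ciliated cells. In alveolar type 2 (AT2)-marker cells, defined by at least 4 of Slc34a2, Lamp3, Cxcl15, Napsa, Hc and Etv5, Met stood at 260, 206, 190 and 125 CPM. Met was therefore lower in ciliated than in AT2-marker cells in all 4 libraries, and lower in the iPCKO than in the control library in both cell classes of both pairs. In ciliated cells, however, the control libraries lay further apart, at 46.9 and 30.3 CPM, than the libraries of either pair. The lower values are therefore not read as a difference of genotype. AT2-marker cells also had to have fewer of the ciliated genes of the rule than a member needs. Low levels of ciliary genes in these cells, given below, are thus partly set by their definition.

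The genes that chose the members were at the following levels. Foxj1 (chr11:116221530-116226225, GRCm39), the transcription factor of motile cilia, was at 475, 409, 549 and 478 CPM. Dynlrb2, a dynein light chain, was at 968, 800, 1242 and 1251 CPM, against 38.7 to 62.1 CPM in AT2-marker cells. Dnah5 (chr15:28203898-28472198), the heavy chain of the outer dynein arm, was at 424, 289, 334 and 122 CPM. It was detected in 87.2, 83.3, 86.5 and 50.8% of members and in at most 1.13% of AT2-marker cells, whose median depths were 8322, 5781, 4715 and 3591 UMIs. Dnah5 was thus lowest in the Hgf iPCKO library, and Foxj1 and Dynlrb2 were lowest in the Bdnf iPCKO library.

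Beyond the 12 genes, the label was borne out by 26 ciliated markers that the rule did not use. All 26 were at least 4-fold higher in members than in the other kept barcodes of the same library in all 4 libraries, as were 747 of 10156 genes measured (7.36%). The rule used this contrast, so nothing further is read from the count. Sec14l3, a lipid-transfer protein of airway cells, was at 7861, 6548, 6924 and 4217 CPM. It was found in nearly every member after thinning to 4044 UMIs, but also in 42.9 to 61.9% of thinned AT2-marker cells. Tppp3, a tubulin-polymerising protein, was at 1312, 1075, 2041 and 1197 CPM.

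The 20 genes that stood highest over other cells in their lowest library were Fam216b, B3gnt4, C530043A13Rik, Wfdc13, Slc35g3, Rsph4a, Klk11, 1700024G13Rik, Aoc1, Lrrc34, Iqcg, D430036J16Rik, Ccdc153, Spaca9, Tmem212, Tcte1, Mdh1b, Gm16188, Pierce1 and Gm44000. Fam216b led with a lowest log2 ratio of 4.48. Several encode axonemal parts, such as the radial spoke protein Rsph4a, the nexin-dynein protein Iqcg and the microtubule inner protein Pierce1, and several are uncharacterised or non-coding.

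The axonemal lists name 14 outer dynein arm, 16 inner dynein arm, 17 assembly factor, 14 nexin-dynein, 17 radial spoke, 25 central pair and 30 microtubule inner protein genes. Of those with at least 20 UMIs in every library, at least 4-fold over other cells in every library were 9 of 11 outer dynein arm genes, 13 of 14 inner dynein arm genes, 11 of 15 dynein assembly factors, all 14 genes of the nexin-dynein regulatory complex, 14 of 16 radial spoke genes, 21 of 23 central pair genes and 20 of 23 microtubule inner proteins. Odad1, which docks the outer arm, was at 107, 94.8, 157 and 176 CPM, and Dnah9, a heavy chain of the distal outer arm, was at 181, 151, 108 and 98.9 CPM. Dnah12, an inner arm heavy chain, was at 373, 317, 200 and 185 CPM. Ccdc39, a ruler of axonemal repeat length, was at 339, 244, 383 and 205 CPM. Cfap43 was at 370, 330, 280 and 159 CPM, and Spag17, of the central apparatus, was at 253, 202, 241 and 202 CPM. Each of these genes stayed under 12 CPM in AT2-marker cells of every library.

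Genes with duties outside motile cilia were less sharply set apart. Of 41 genes for intraflagellar transport and the BBSome, the cargo adaptor of cilia, 20 were at least 4-fold over other cells, beside 7.36% of all genes measured. Of 14 centriole genes only Cetn4 and Ccdc78 were, which is not far from that share. Ift57 was at 153, 118, 132 and 108 CPM in ciliated cells and at 15.4, 12.3, 10.7 and 13.8 CPM in AT2-marker cells. Of 18 genes for tubulins and their modifying enzymes, 6 passed. Tubb4b, the beta-tubulin of cilia, was at 978, 972, 1101 and 918 CPM. Tuba1a was at 1235, 1034, 1714 and 1116 CPM and its close paralogue Tuba1b at 374, 306, 423 and 313 CPM, and reads shared by such paralogues were divided by the alignment's own estimate.

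Regulators of the programme were present at lower levels. Rfx2 was at 132, 119, 117 and 113 CPM, and Rfx3 at 88.2, 61.9, 52.8 and 40.8 CPM. Trp73, which acts upstream of Foxj1, was at 43.3, 45.0, 47.3 and 48.0 CPM. Myb, which acts early in multiciliogenesis, was at 195, 167, 155 and 137 CPM. Rfx2 and Trp73 varied little over the 4 libraries, whereas Rfx3 and Myb were highest in the Bdnf control and lowest in the Hgf iPCKO library.

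RFX factors bind paired sites near the starts of ciliary genes, so the promoters, taken as 250 bases before to 50 after the start in GRCm39 with the Gencode vM39 annotation, were searched for GTTNCC followed by GGNAAC with 0 to 3 bases between, which is its own reverse complement and so reads the same on both strands. The pair was found in 154 of all 21770 promoters (0.707%) and in 96 of 9620 promoters of genes measured in ciliated cells (0.998%). It was found in 20 of 684 promoters of the genes at least 4-fold over other cells (2.92%), in 5 of 160 of the genes of the axonemal lists, the markers and the rule (3.12%), and in 5 of 43 of the intraflagellar transport and BBSome genes (11.6%). None of 22 secretory airway genes had it. Among the 21 pairs in promoters of axonemal, marker or rule genes or of genes 4-fold over other cells, 17 had 2 bases between the elements and 15 lay within 100 bases before the start. The forkhead core TGTTTAC, searched on both strands and with no overlap with the paired site, was in 7 of the 160 axonemal promoters (4.38%), none of the 43 transport promoters and 685 of all promoters (3.15%). A match is a description of the sequence, and binding was not measured.

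Of the pairs in list genes, 9 are printed below as 30 bases on the strand of the gene, 5′ to 3′, because they show the letters of the paired site and how its spacing and distance from the start vary, with the 2 elements and the bases between them in capitals.
Iqca, of the nexin-dynein regulatory complex, chr1:90081238-90081267, minus strand, beginning 16 bases before the start: tgccttgcaGTTGCCACGGAAACggaaaca
Pifo, a ciliary marker, chr3:105908813-105908842, minus strand, 20 bases before: cgcggttccGTTCCCTTGGCAACgtagtac
Odad3, of the outer arm docking complex, chr9:21913944-21913973, minus strand, 8 bases before: acgcgggcgGTTTCCTTGGGAACgtgggcg
Ccdc96, an axonemal gene, chr5:36641925-36641954, plus strand, 1 base after: gcgccctgGTTGCCCCGGGAAACctaacag
Dync2li1, of the retrograde transport motor, chr17:84933872-84933901, plus strand, 15 bases after: cgtgacgtcGTTGCCATGGCAACcgaggag
Cluap1, of the transport train, chr16:3726471-3726500, plus strand, 137 bases before: cgctccacaGTTTCCAGGGCAACctctggc
Ttc26, of the transport train, chr6:38358417-38358446, plus strand, 22 bases after: cccggcggcGTTGCCGTGGAAACggagctc
Bbs7, of the BBSome, chr3:36667639-36667668, minus strand, 10 bases before: tgcgccccgGTTGCCTTGGAAACcggccag
Lztfl1, a BBSome regulator, chr9:123546833-123546862, minus strand, 129 bases before: atttctctGTTGCCATTGGCAACggcaggc

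These 9 genes differed in how far ciliated cells stood over the rest. Iqca was at 255, 203, 290 and 148 CPM in ciliated cells and under 1 CPM in AT2-marker cells. Dync2li1 was at 114, 93.8, 109 and 98.3 CPM and reached 36.4 CPM in AT2-marker cells. Lztfl1 was at 112, 85.8, 110 and 88.6 CPM, with 15.1 to 24.6 CPM in AT2-marker cells. The transport and BBSome genes with the paired site were thus also measured outside ciliated cells, whereas Iqca, Pifo, Odad3 and Ccdc96 were not above 1 CPM in AT2-marker cells of any library.

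Markers of other lung cells were low in members but not absent. The 12 AT2 genes summed to 6594, 6039, 6320 and 4495 CPM, against 41530 to 91544 CPM in the other kept barcodes and 18282 to 49316 CPM in barcodes of under 100 UMIs, which hold mainly free RNA. Endothelial genes summed to 250 to 375 CPM, and immune genes to 77.2, 41.3, 23.2 and 6.6 CPM. The rule had set aside barcodes with UMIs of genes that mark endothelial cells, leukocytes and alveolar epithelium. The other kept barcodes include those cells. Low levels of these lists in members, and the next count, are thus partly set by the rule and are a description. Of all these lists, none of 12 AT2, 10 AT1 and 4 endothelial genes measured was 4-fold over other cells. Secretory airway genes were the exception, with 8 of 15 past that limit, beside 7.36% of all genes. They summed to 34591, 44649, 47967 and 45271 CPM in members. In barcodes of under 100 UMIs they summed to 17738, 26159, 20241 and 40496 CPM, and free RNA was not separated from the values of members.

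Secretory airway genes divided the members. The 22 genes of this list, among them the secretoglobins and Cyp2f2 of club cells, gave at most 2% of UMIs in 157, 263, 166 and 342 members and more than 2% in 100 (38.9%), 217 (45.2%), 115 (40.9%) and 314 (47.9%). The limit of 2% was chosen after the values were seen, and 12, 45, 12 and 44 members lay between 1 and 3%. The median secretory share was 0.47, 0.44, 0.56 and 0.43% below the limit, hereafter secretory-poor, and 5.73, 6.28, 7.57 and 6.78% above it, secretory-rich. In club-marker cells, which have at least 3 of Cyp2f2, Cldn10, Chad, Cckar, Gabrp, Pon1 and Aox3 and fewer than 3 of the ciliated genes, the share was 6.80, 9.81, 11.4 and 11.5%, and in AT2-marker cells 0.0793 to 0.115%. The split and the club-marker class were both defined with genes of this list, so these shares are a description.

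The secretory-rich members also had more UMIs and fewer ciliary transcripts per UMI. Their median of 21909, 18268, 15793 and 13187 UMIs was 2.00, 2.25, 2.16 and 2.36 times that of secretory-poor members. The sum of the medians of secretory-poor and club-marker cells was 22446, 17424, 17432 and 13048 UMIs, and the secretory-rich median was 0.976, 1.05, 0.906 and 1.01 times this sum. Thinned to 4044 UMIs, secretory-poor members held a median of 128, 110, 138 and 103 UMIs of 153 ciliary genes, and secretory-rich members 58, 43, 57 and 39. AT2-marker cells held 2. The mitochondrial share was 10.6, 10.3, 12.9 and 12% in secretory-poor members, 15.6, 16.0, 15.7 and 16.4% in secretory-rich members, and 15.4 to 16.0% in club-marker cells.

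**Figure D2:**
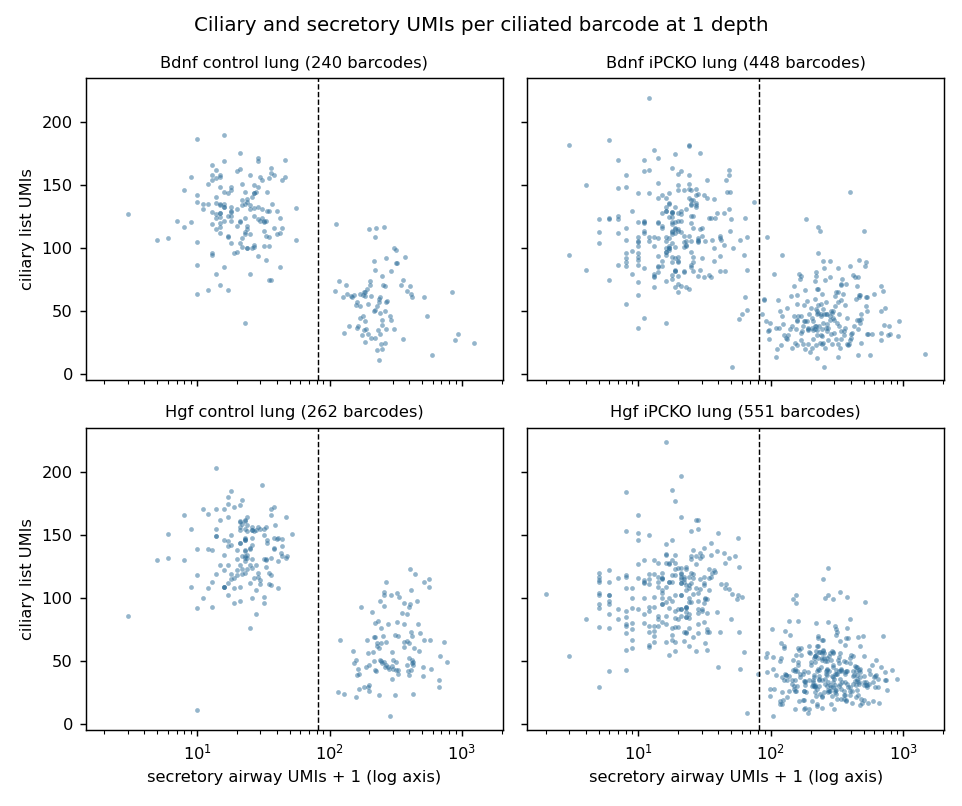
Each point is 1 member thinned to 4044 UMIs, in 1 panel per lung library, with UMIs of the secretory airway genes on a log x axis and UMIs of the ciliary genes on the y axis. A dashed line marks 2% secretory UMIs, and in every panel the members to its right have fewer ciliary UMIs, with medians of 39 to 58 against 103 to 138 on the left.

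Genes outside the secretory list moved with it. Trf, which encodes transferrin, was at 11.1, 6.95, 2.94 and 2.25 CPM in secretory-poor members and 333, 195, 279 and 78.5 CPM in secretory-rich members. AT2 genes were also higher in secretory-rich members, with 9155, 7314, 9789 and 5763 CPM against 3774, 3753, 1633 and 2053 CPM. No doublet caller was run, and whether such barcodes held 1 cell or several was not tested. Values in secretory-poor members alone are therefore given beside several of the results below.

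The genes that varied most among members, beyond counting error and in the library where they varied least, were Scgb3a1, Lyz2, Sftpc, Retnla, Ccn1, Pigr, Thbs1, Arc, Cyp2a5, Slc34a2, Chia1 and Areg, of 2783 genes measured. The measure is the variance less the mean over the squared mean in thinned members, with a median of 0.084 over all these genes. It was 20.7 for Scgb3a1, a secretoglobin found in only 7.08, 10.9, 11.5 and 3.09% of thinned members but with up to 200 UMIs in 1 of them. It was 17.3 for Sftpc, the surfactant protein of AT2 cells. Lyz2 and Slc34a2 are AT2 genes as well, whereas Arc, Ccn1, Thbs1 and Areg belong to genes induced within minutes to hours of stimulation. Tppp3 (0.21), Tuba1a (0.33) and Tubb4b (0.40), chosen after their values were seen, were below these 12 genes and above the median over all genes.

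Some members carried genes of centriole amplification, the stage before cilia grow. At least 2 of Deup1, Ccno, Cdc20b, Mcidas, Foxn4 and Myb were found in 99 (38.5%), 125 (26%), 68 (24.2%) and 170 (25.9%) members, and in 20 (8.33%), 36 (8.04%), 27 (10.3%) and 55 (9.98%) after thinning. Thinned AT2-marker cells had none and club-marker cells at most 0.877%. Myb, found in 207, 364, 198 and 406 members, made up most of these. Before thinning, members with at least 2 of the genes had a median of 17248, 15473, 11094 and 12307 UMIs, against 11224, 9929, 9973 and 8200 in the rest. The centriole list summed to 907, 728, 1012 and 699 CPM in them and to 705, 653, 704 and 538 CPM in the rest. The share is therefore not read as the share of cells at that stage. Deup1, a deuterosome protein, was found in 26.8, 14.2, 22.8 and 14.6% of members with up to 27, 28, 21 and 10 UMIs in 1 of them, and all 6 genes together in 2, 3, 2 and 1. Mcidas, an initiator of the programme, was found in 7, 15, 4 and 16 members. After thinning, the share thus ranged from 8.04 to 10.3%, and the counting intervals of the 4 libraries (5.16 to 12.6%, 5.69 to 10.95%, 6.90 to 14.6% and 7.61 to 12.8%) overlapped.

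In the Bdnf pair, few genes of ciliated cells were past 2-fold. Of 11410 genes with at least 50 UMIs, 88 were higher in Bdnf iPCKO than in control members (0.771%) and 65 were lower (0.57%), with a median log2 ratio of -0.07 over all genes. In secretory-poor members the counts were 84 and 52 of 9033. Uchl1 (chr5:66832748-66845009), a ubiquitin hydrolase, was at 6.51 CPM in control and 32.0 CPM in iPCKO members (log2 ratio 2.27, interval 1.71 to 2.95). Gem, a small GTPase, was at 13.8 and 47.6 CPM (1.78), and Pdk4, which limits pyruvate oxidation, was at 14.8 and 45.6 CPM (1.61). Meg3, a long non-coding RNA, was at 3.76 and 13.7 CPM (1.83). Uchl1 was further apart in AT2-marker cells of the same libraries, where its log2 ratio was 4.60.

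Among the other genes higher in Bdnf iPCKO members were Casp4, an inflammatory caspase (17.5 and 43.7 CPM), Thbs1, a matrix glycoprotein (78.7 and 186 CPM), Errfi1, a feedback inhibitor of the EGF receptor (116 and 244 CPM), and Rbm3, a cold-inducible RNA-binding protein (85.8 and 176 CPM). Sfta2, a surfactant-associated gene, was at 18 and 44.5 CPM in the Bdnf pair but at 315 and 547 CPM in the Hgf pair. The distance between the control libraries, 4.12 on the log2 scale, was thus larger than either difference between genotypes.

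Lower in Bdnf iPCKO members was Kcnip4 (chr5:48546844-49682249), a potassium channel-interacting protein, at 149 and 49.3 CPM (log2 ratio -1.60, -1.80 to -1.40). Kcnq5, a potassium channel, was at 21.6 and 4.90 CPM (-2.13), and Rarres2, which encodes chemerin, was at 20.0 and 4.98 CPM (-2.0). Anxa8, an annexin, was at 127 and 54.6 CPM (-1.21), and Hsph1, a heat shock chaperone, at 621 and 279 CPM (-1.16). Metrn was at 32.1 and 13.1 CPM (-1.29). The difference in Rarres2 rested on the limit for UMIs of other cell types, since its log2 ratio was 0.023 without that limit.

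Some large ratios of the Bdnf pair came from 1 barcode. A single Bdnf control member held 92.3% of that library's UMIs of Chil4 and 1 held 76.2% of those of Ltf, both secreted proteins. Without it, the log2 ratio was 2.07 in place of -1.62 for Chil4 and 0.28 in place of -1.77 for Ltf. A single Bdnf iPCKO member held 68.6% of the UMIs of Bpifa1, an airway defence protein, whose ratio was -0.49 without it in place of 1.17. Another held 65.3% of those of the cyclin Ccnb1, whose ratio was 1.03 without it in place of 2.54. One barcode held more than 50% of a gene's UMIs for 3 of the 88 higher and 3 of the 65 lower genes.

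Ciliary genes were slightly lower in Bdnf iPCKO members as a group and none was past 2-fold. Over the 143 genes of the axonemal lists and the markers outside the rule, the median log2 ratio was -0.35 and 3 genes were above 0, beside the -0.07 over all genes. In secretory-poor members it was -0.19. The medians by list ran from -0.24 for the radial spokes to -0.48 for the microtubule inner proteins, among them Pierce1 at 314 and 199 CPM (-0.66) and Cfap141 at 264 and 146 CPM (-0.86). Intraflagellar transport genes had a median of -0.30 and regulators of -0.17. In the other kept barcodes, the medians of the axonemal and marker lists ran from 0.32 to 0.58, and in barcodes of under 100 UMIs from -0.13 to 0.33. The shares of members that were secretory-rich, 38.9 and 45.2%, and the median depths, 13418 and 10906 UMIs, moved with the difference in members, and their part in it was not tested.

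Stress-related lists pointed in different directions in the Bdnf pair. All 18 immediate early genes were above 0 with a median log2 ratio of 0.51, which was also 0.51 in the other kept barcodes and in club-marker cells and 0.55 in AT2-marker cells, for example Fos at 2805 and 3878 CPM (0.47) and Jun at 1035 and 1572 CPM (0.60). Of 12 glucocorticoid-induced genes, 5 were past 2-fold higher, beside 0.771% of all genes. Their median was 0.80, and the same list had a median of 0.73 in secretory-poor members, 0.37 in club-marker cells, 0.57 in the other kept barcodes and 0.86 in AT2-marker cells. Zbtb16 was at 22.3 and 47.8 CPM (1.09), and Mt2, a metallothionein, at 1461 and 2356 CPM (0.69). Of 14 heat shock genes, Hspa1a was past 2-fold higher and Hsph1 past 2-fold lower, beside 0.771% and 0.57% of all genes, with a median of -0.24 (-0.22 in secretory-poor members, -0.33 in club-marker cells, -0.21 in AT2-marker cells and -0.13 in the other kept barcodes). Of 9 interferon-stimulated genes, Ifit1 and Rtp4 were past 2-fold lower, beside 0.57% of all genes, with a median of -0.72, beside -0.59 in secretory-poor members, -0.85 in the other kept barcodes, -0.72 in club-marker cells and -0.31 in AT2-marker cells.

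In the Hgf pair, many more genes were past 2-fold. Of 10936 genes, 381 were higher in Hgf iPCKO than in control members (3.48%) and 464 were lower (4.24%), with a median log2 ratio of -0.06. In secretory-poor members the counts were 305 and 229 of 8241. Rgcc (chr14:79526185-79539085), a regulator of the cell cycle, was at 27.8 CPM in control and 394 CPM in iPCKO members (log2 ratio 3.82, interval 3.52 to 4.15). Akr1c14, an aldo-keto reductase for steroids, was at 108 and 522 CPM (2.27), and Cirbp, a cold-inducible RNA-binding protein, was at 27.2 and 147 CPM (2.43). Rgs16, an inhibitor of G protein signalling, was at 1.25 and 18.8 CPM (3.74), and Sphk1, a sphingosine kinase, was at 2.50 and 29.2 CPM (3.46). Of the 344 higher genes that could be measured in AT2-marker cells, 142 were past 2-fold there as well, and of 341 lower genes 130 were. Of all 10325 genes measured in both classes, 389 were higher and 447 lower in AT2-marker cells. In club-marker cells, 100 of 195 higher and 96 of 139 lower genes were past 2-fold as well, beside 221 higher and 365 lower of all 6906 genes.

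Genes of the circadian clock were among the most different. Dbp (chr7:45354512-45359627), a clock output factor, was at 12.5 and 149 CPM (3.56, 3.12 to 4.07), and its log2 ratio in AT2-marker cells was 5.39. Ciart, a clock repressor, was at 2.19 and 28.9 CPM (3.63), Per1 at 30.6 and 97.1 CPM (1.66), and Nr1d1 at 102 and 230 CPM (1.17). The activators Arntl, at 33.1 and 12.5 CPM (-1.40), and Npas2, at 12.8 and 4.69 CPM (-1.44), were lower. Of 16 clock genes measured, 8 were past 2-fold higher and 2 lower, beside 3.48% and 4.24% of all genes. Their median was 1.04, against 1.27 in secretory-poor members, 1.11 in club-marker cells, 1.56 in the other kept barcodes and 1.93 in AT2-marker cells. In the Bdnf pair 1 of 15 was past 2-fold higher, beside 0.771% of all genes, and the median was 0.35 (0.23 in secretory-poor members). The hour at which lungs were taken was not given in the sources used here, so clock phase and genotype cannot be told apart.

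Glucocorticoid-induced genes and metallothioneins were higher in Hgf iPCKO members. Of 12 genes of the glucocorticoid list, 6 were past 2-fold higher, beside 3.48% of all genes. Their median was 1.16, against 1.45 in secretory-poor members, 0.89 in club-marker cells, 1.27 in the other kept barcodes and 1.32 in AT2-marker cells. Fkbp5, a receptor co-chaperone, was at 7.81 and 39.1 CPM (2.30), and Zbtb16 at 6.56 and 33.5 CPM (2.32). Mt1 was at 1487 and 4308 CPM (1.53), and Mt2 at 982 and 2995 CPM (1.61). All 28 ribosomal protein genes were above 0, with a median of 0.63, beside 0.43 in secretory-poor members, 0.62 in club-marker cells and 0.70 in AT2-marker cells. Of 25 genes for aldehyde, xenobiotic and redox metabolism, 4 were past 2-fold higher, for example Nqo1, a quinone reductase, at 29.4 and 78.1 CPM (1.41), and Aldh3a1 was past 2-fold lower, beside 3.48% and 4.24% of all genes. The median of this list was 0.27 in members, 0.13 in club-marker cells, 0.48 in the other kept barcodes and 1.01 in AT2-marker cells.

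Secretory and defence genes stood at the other end. Bpifb1 (chr2:154032738-154062289), a mucosal defence protein, was at 575 and 2.61 CPM (-7.74, -8.56 to -7.10), and was found in 20 control and 6 iPCKO members. Bpifa1 was at 115 and 0.461 CPM (-7.74). Reg3g, an antibacterial lectin, was at 414 and 12 CPM (-5.10), and all 78 of its UMIs in the Hgf iPCKO library came from 1 barcode. Scgb3a1 was at 2523 and 236 CPM (-3.42), Muc5b, a gel-forming mucin, was at 43.4 and 4.15 CPM (-3.36), and Retnla was at 1395 and 277 CPM (-2.33). In secretory-poor members, the log2 ratio of Scgb3a1 was -1.10.

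Most genes of the list were lower, but not all. Of 20 secretory airway genes measured, 10 were past 2-fold lower, beside 4.24% of all genes. Their median was -1.02, and it was -1.39 in secretory-rich members, -1.45 in club-marker cells and -0.78 in the other kept barcodes. In secretory-poor members only 8 of the list were measured, with a median of 0.47. That is another set of genes, and members were split on the total of this list, so the change of sign is not read as a result. Of the club cell genes with most UMIs, Scgb1a1 was higher and Scgb3a2 and Cyp2f2 were lower. Scgb1a1 was at 21266 and 29151 CPM (0.46), Scgb3a2 at 11437 and 6934 CPM (-0.72), and Cyp2f2 at 7737 and 6579 CPM. The whole list summed to 20241 and 40496 CPM in barcodes of under 100 UMIs of this pair, and the part of free RNA in these values was not tested. Ltf, Agr2, Tff2 and the other defence genes came from few barcodes, so the counting intervals understate the error of their ratios.

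Ciliary genes were lower in Hgf iPCKO members. Over 141 genes of the axonemal lists and markers, 25 were past 2-fold lower and none higher, beside the 4.24% of all genes that were lower, and the median log2 ratio was -0.56 with 11 genes above 0. In secretory-poor members the median was -0.41, with 14 past 2-fold lower and 20 above 0, beside a median of 0.02 over all genes. With the mitochondrial limit at 10% it was -0.35. In the other kept barcodes, the medians by list ran from -0.04 for the inner dynein arms to 0.29 for the radial spokes. In barcodes of under 100 UMIs they ran from 0.26 to 0.65. Members made up 1.99% of kept barcodes in the Hgf control and 4.15% in the Hgf iPCKO library, and the part of this in those medians was not tested. The other kept barcodes include those set aside for UMIs of other cell types. Secretory-rich barcodes made up 40.9% of control and 47.9% of iPCKO members and the median depth was 10814 and 9124 UMIs. The part of these in the difference was not tested.

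The inner dynein arms held the lowest median of these lists, -0.85, with 5 of 14 genes past 2-fold lower. They also held the lowest of these medians between the control libraries, -0.53 with none of 14 genes above 0, and this difference stands beside that of the pair. Between the control libraries the ciliary list genes at least 4-fold over other cells had a median log2 ratio of 0.14 for transcripts up to 2133 bases in the Gencode annotation, -0.05 for longer ones up to 4020 bases and -0.31 above that. Over all protein-coding genes the same classes had medians of 0.08, -0.10 and -0.26. In the Hgf pair these ciliary genes had medians by class of -0.55, -0.59 and -0.40, and the part of transcript length in the dynein values was not tested. The 5 inner arm genes past 2-fold lower were the heavy chains Dnah1, at 34.4 and 17.1 CPM (-1.01), Dnah3, at 93.2 and 44.9 CPM (-1.05), and Dnah6, at 172 and 70.5 CPM (-1.28), with Dnai3 and Dnai4. Dnai1 (chr4:41569193-41638158), an intermediate chain of the outer arm, was at 99.3 and 33.2 CPM (-1.58, -1.84 to -1.33) and at -1.38 in secretory-poor members. The heavy chains Dnah9, at 108 and 98.9 CPM (-0.12), and Dnah12, at 200 and 185 CPM (-0.12), were not apart in this way. Thus genes of the same structure differed in how far the libraries lay apart. Dnah5, which the rule used, had a log2 ratio of -1.46.

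Other axonemal genes past 2-fold lower were spread over the lists. Ccdc146, at 191 and 65.7 CPM (-1.54), Fbxl13 and Ccdc96 belonged to the nexin-dynein list, Rsph4a, at 190 and 91.5 CPM (-1.05), Rsph10b and Armh1 to the radial spokes, and Spag6l, at 187 and 92.6 CPM (-1.02), Cfap74 and Mycbpap to the central pair. Cfap141, at 298 and 113 CPM (-1.40), Mns1, at 234 and 103 CPM (-1.19), and Cfap52 belonged to the microtubule inner proteins. On the other side, Odad1 was at 157 and 176 CPM (0.16), the central pair gene Cfap20 at 183 and 223 CPM, and the marker Tmem212 at 890 and 1141 CPM (0.36). Of 41 transport and BBSome genes, 1 (Hspb11) was past 2-fold lower, beside 4.24% of all genes, and their median was -0.27.

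**Figure D3:**
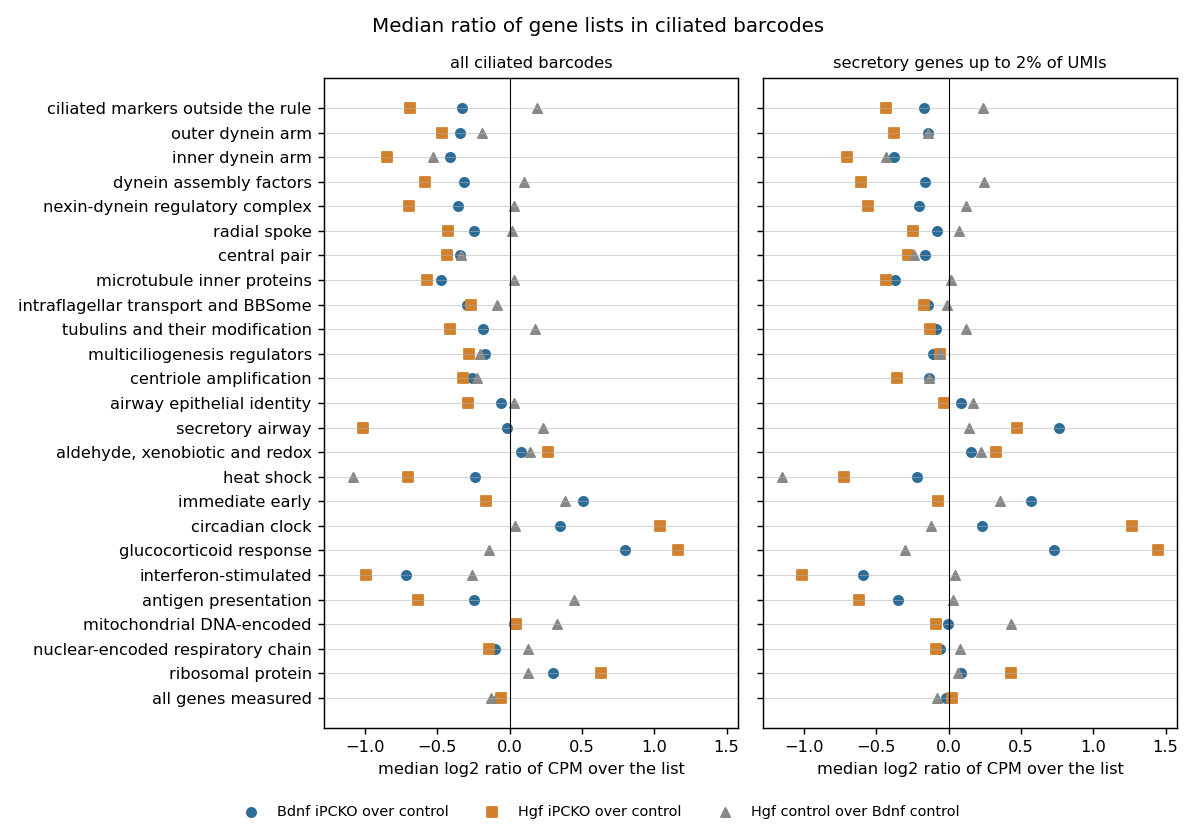
Median log2 ratio of each gene list in ciliated members, for Bdnf iPCKO over control (circles), Hgf iPCKO over control (squares) and Hgf control over Bdnf control (triangles), with all members in the left panel and secretory-poor members in the right panel. Among all members, the axonemal lists lie at or below -0.43 in the Hgf pair and between -0.24 and -0.48 in the Bdnf pair, whereas the glucocorticoid list lies at 0.80 and 1.16.

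Of 14 regulators of multiciliogenesis, 1 was past 2-fold higher and 2 were lower, beside 3.48% and 4.24% of all genes. In secretory-poor members 2 of 12 were higher and none was lower, beside 305 and 229 of all 8241 genes. With so few genes, these counts are not read as different. Mycl was at 21.6 and 53.1 CPM (1.29) and Gmnc, which acts at the start of the programme, at 10.9 and 4.31 CPM (-1.34). Cdc20b was also past 2-fold lower, but it was found in 6 and 8 members. Rfx2 was at 117 and 113 CPM (-0.04), and Trp73 was at 47.3 and 48.0 CPM. Of 14 centriole genes, 4 were past 2-fold lower (Sass6, Cenpj, Ccdc78 and Cetn4), beside 4.24% of all genes, and Poc1a was past 2-fold higher, beside 3.48%. In secretory-poor members none of the 9 measured was past 2-fold, and their median was -0.35.

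Heat shock, interferon and antigen presentation lists were lower in the Hgf pair. Hsp90aa1 was at 2048 and 822 CPM (-1.32) and Hsph1 at 212 and 37.8 CPM (-2.49), with a list median of -0.70 (-0.72 in secretory-poor members, -0.66 in club-marker cells, -0.38 in AT2-marker cells and -0.13 in the other kept barcodes). The heat shock list summed to 14673, 10582, 6602 and 3497 CPM in the 4 libraries, so the control libraries lay apart as well. Of 8 interferon-stimulated genes, 4 were past 2-fold lower, beside 4.24% of all genes, with a median of -0.99 (-1.01 in secretory-poor members, -1.17 in the other kept barcodes), for example Oasl2 at 21.7 and 3.23 CPM (-2.73). Of 10 antigen presentation genes, 4 were past 2-fold lower, beside 4.24% of all genes, namely Cd74, H2-Aa, H2-Ab1 and H2-Eb1, which present antigen on class II molecules. The list median was -0.63. In secretory-poor members it was -0.62, with 1 of 7 genes past 2-fold lower, beside 229 of all 8241 genes. Cd74 was at 43.1 and 21.1 CPM in ciliated cells but at 939 and 214 CPM in AT2-marker cells, and free RNA from those cells was not separated from it.

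**Figure D4:**
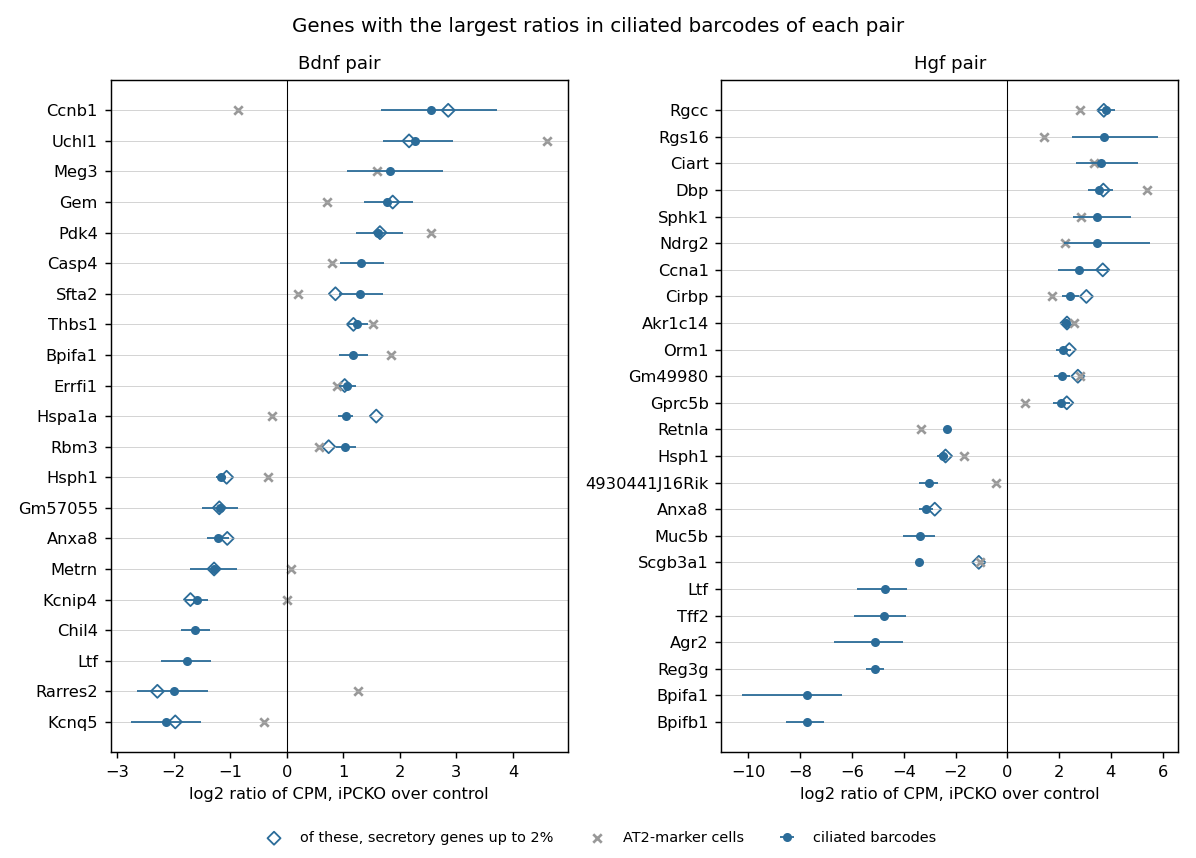
Log2 ratio of iPCKO over control for those of the 12 named genes in each direction of the Bdnf pair and of the Hgf pair that were past 2-fold, with 95% counting intervals, diamonds for secretory-poor members and crosses for AT2-marker cells. Bpifb1 and Bpifa1 lie at -7.74 in the Hgf pair, Rgcc at 3.82, and Uchl1 at 2.27 in the Bdnf pair.

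Some genes were past 2-fold in the same direction in both pairs, which have separate control libraries. These overlaps were counted over all members. Over all genes measured, 3.48% were higher in the Hgf pair and 0.771% in the Bdnf pair. Higher in both were 20 genes, 32.3% of the Bdnf calls that could be measured in both pairs and 6.62% of the Hgf calls. They included Uchl1, at 25.9 and 77.2 CPM in the Hgf pair (1.57), Meg3 (2.10), Ndrg2 (3.44), Rgs16, Dbp, Zbtb16 and Rbm3 (1.71). Uchl1 is also a marker of neuroendocrine cells, another cell type of the airway, and was found in 8.56, 26.2, 19.9 and 39.5% of members. All 3 neuroendocrine genes measured in the Hgf pair (Uchl1, Calca and Resp18) were past 2-fold higher, beside 3.48% of all genes. Uchl1, the 1 gene measured there, was past 2-fold higher in the Bdnf pair, beside 0.771% of all genes, and, at 1.97, between the controls, beside 2.13%. The list summed to 8.27, 37.5, 31.2 and 100.3 CPM in members and to 21.9, 24.4, 22.3 and 58.3 CPM in the other kept barcodes, and its part in these ratios was not tested. The genes higher in both pairs also included the endothelial genes Flt1, at 6.26, 13.1, 2.81 and 6.34 CPM, and Ptprb, at 14.8, 30.2, 9.37 and 21.4 CPM, while the summed endothelial list stood at 250, 362, 261 and 375 CPM. Over all genes measured, 4.24% were lower in the Hgf pair and 0.57% in the Bdnf pair. Lower in both were 17 genes, 37.8% of the Bdnf calls and 3.89% of the Hgf calls. Among these 17 were Ltf and Rarres2, whose Bdnf ratios were near or above 0 without 1 barcode or without the limit on other cell types, as given above. The others included Kcnip4, at 42.6 and 16.6 CPM in the Hgf pair (-1.36), Anxa8, at 189 and 21.5 CPM (-3.13), and Hsph1.

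Genes also lay past 2-fold between the control libraries. Of 10391 genes, 221 were past 2-fold higher in Hgf control than in Bdnf control members (2.13%) and 481 were lower (4.63%). In secretory-poor members the counts were 175 and 427 of 8104. Esm1, known from endothelial cells, was at 0.251, 0.311, 85.0 and 114 CPM and in 0.389, 0.208, 44.1 and 50.5% of members. Tmem212 was at 267, 218, 890 and 1141 CPM, a log2 ratio of 1.74 between the controls and of -0.29 and 0.36 within the pairs. Litter, floxed allele and any difference in library preparation cannot be told apart here. The study's methods name standard and enhanced BD Rhapsody beads without saying which libraries used which. Over all members, the Hgf pair thus had more genes past 2-fold than the control libraries, in secretory-poor members it had fewer, and the Bdnf pair had fewer in both.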

How the data were processed

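Lung cells were profiled on the BD Rhapsody whole-transcriptome platform. Per the labels and the study's methods, the authors aligned reads with STARsolo (STAR 2.7.10a) to GRCm39, with multi-mapping reads divided by expectation maximisation, and the deposited values are therefore estimated counts (expected counts, UMIs per gene and barcode) with no filter on cells. Each file held 912673 barcodes and 56884 features, and 8.5 to 9.9% of the entries were fractional, so reads of close paralogues, pseudogenes and overlapping genes are uncertain. The Gencode release is stated differently in different places of the sources and gene positions, lengths and promoters were taken from Gencode vM39.

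Members were summed per library as deposited, without rounding, and divided by all their UMIs (CPM). Log2 ratios used an offset of 0.5 UMI and a conditional exact binomial 95% interval, and shares used Clopper-Pearson intervals. A gene was called with at least 50 UMIs in a pair and a ratio past 2-fold, or, over other cells, with at least 20 UMIs and 4-fold in all 4 libraries. Cells are not replicates and no test was run. For shares of cells, barcodes were thinned to 4044 UMIs, and 17, 32, 19 and 105 shallower members were left out. Members and gene lists were chosen with earlier results of these data known. Named genes were the rule's genes, up to 4 list members with most UMIs or past 2-fold in both pairs, the 12 genes in each direction of a pair with the interval bound farthest from 0, the 20 genes farthest over other cells, the 12 most variable genes, and the deleted genes with their receptors. Other genes were named after their values were seen, and some named by the rule are not reported here. The secretory split and the check of single barcodes were added after the data were seen. Alternatives changed the UMI, mitochondrial, marker, exclusion, count and fold limits and the scaling. The steps were tested on simulated data. No doublet caller was run, and the cortex libraries were used only to count barcodes that passed the same gene limits and to give a few gene levels in them. Analyses used Python 3.11.15, numpy 2.4.6, scipy 1.17.1, pandas 2.3.3 and matplotlib 3.10.9.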

Additional observations from a re-analysis of the deposited data

Results flagged for a closer look

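The cortex libraries were made on postnatal day 12 from Nodal iPCKO mice and their controls (Nodal lox/lox), given the same tamoxifen, and entered no comparison. In them, 4 of 4814 kept barcodes (0.0831%) of the Nodal iPCKO library and 2 of 3078 (0.065%) of its control passed the same gene limits. Summed over these barcodes, Foxj1 was at 1124 CPM in the Nodal iPCKO and 948 CPM in the control library, Tmem212 at 1725 and 1660 CPM, and Ccdc153 at 1229 and 1778 CPM. Scgb1a1, Epcam and Sec14l3, which lung members express, had 0 UMIs in them.

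Bpifa1, Ccna1 and Gm4285 stood past 2-fold in opposite directions in the Bdnf and Hgf pairs, and the difference between the pairs was not tested. Bpifa1 had a log2 ratio of 1.17 in the Bdnf pair and -7.74 in the Hgf pair, and 1 barcode held 68.6% of its UMIs in the Bdnf iPCKO library. Ccna1, a cyclin of meiotic and multiciliated cells, had -1.87 in the Bdnf pair and 2.78 in the Hgf pair, at 16.0, 4.36, 3.44 and 24.6 CPM, and was found in 11, 11, 11 and 21 members with up to 24, 11, 1 and 25 UMIs in 1 of them. Gm4285, a predicted gene, had -1.005 and 1.63, at 10.0, 4.98, 3.75 and 12 CPM.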

How the results depend on the processing

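Of 1095 values under the alternatives, 945 stayed within a set window, 139 moved and 11 turned direction. The window followed the counting interval for shares and single genes and was 1.5 times for counts of genes. For list medians it was the median half-width of the single-gene intervals, which does not measure the error of a median. With no limit on UMIs of other cell types, the Bdnf pair gave -0.35 for Bpifa1 and 0.023 for Rarres2, the share ratio between the controls was -0.054, and 156 genes were higher in the Bdnf pair and 733 lower between the controls. With a mitochondrial share of at most 10%, the share ratios were 1.40 (Hgf) and -0.95 (controls), the axonemal median of the Hgf pair was -0.35, 169 genes were higher and 99 lower in the Hgf pair, and 298 lower between the controls. The secretory median of the Bdnf pair, -0.02, lay near 0 and was 1.43 under that limit, 0.003 with minimums of 3000 and 1500 UMIs, 0.074 and 0.029 with at least 2 and 4 of the 6 genes, and 0.056 with median-of-ratios scaling. Without secretory-rich members it was 0.76 over 9 genes in place of 21, and that of the Hgf pair was 0.47 over 8 genes in place of 20. The gene sets differ and the members were split on this list, so these 2 values are not read as a change of the list. Without secretory-rich members, 229 genes were lower in the Hgf pair. The mean of per-cell CPM gave 110 lower genes in the Bdnf pair. At minimums of 20 and 200 UMIs, 288 and 21 genes were higher and 192 and 9 lower in the Bdnf pair, 711 and 137 higher and 766 and 173 lower in the Hgf pair, and 408 and 95 higher and 845 and 166 lower between the controls. At 8-fold, 441 genes stood over other cells. Thinning gave 8.33, 8.04, 10.3 and 9.98% of members with centriole amplification genes. Genes tested at a higher minimum are a part of those tested at a lower one, so these counts can only fall as the minimum rises. The shares past 2-fold at these minimums are not given here, and for the other changes the cause was not tested. With 1 library a group, no library could be left out and depth limits genes under about 50 UMIs.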

Other observations

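The circadian, glucocorticoid, heat shock and interferon lists were also measured between the control libraries, where their medians on the log2 scale were 0.03, -0.14, -1.08 and -0.26, with 7 of 14 heat shock genes past 2-fold lower in Hgf control than in Bdnf control ciliated cells, beside 4.63% of all genes. Antigen presentation genes had a median of 0.45 there. Clca1, a secreted airway protein, was at 231, 120, 1.25 and 0.923 CPM, and Chil4, a chitinase-like protein, at 91.7, 29.9, 0.312 and 0.461 CPM. In the Bdnf control library 1 barcode held 88.7% and 92.3% of their UMIs.

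Of 15 genes for ion and water transport, 2 were at least 4-fold over other cells, beside 7.36% of all genes, and the list summed to 3468, 3529, 2743 and 4225 CPM in ciliated cells and 4226, 4034, 3282 and 6072 CPM in AT2-marker cells. Scnn1a, a subunit of the epithelial sodium channel, was at 984, 914, 904 and 1733 CPM in ciliated cells and 412, 422, 341 and 1154 CPM in AT2-marker cells, with a log2 ratio of 0.94 in the Hgf pair and of 1.76 in AT2-marker cells. Cftr, the chloride channel, was at 14.0, 13.1, 6.56 and 4.46 CPM in ciliated cells and at 110, 114, 59.7 and 35.6 CPM in AT2-marker cells. Thinned members also held more genes per cell than AT2-marker and club-marker cells, with medians of 2045.5, 1994.5, 1951 and 1870 against 1724, 1689, 1682.5 and 1712 and against 1687, 1635, 1600 and 1520. Of 1000 AT2-marker cells drawn per library, 40, 167, 316 and 699 were too shallow and were left out, as were 29, 49, 31 and 58 club-marker cells. Members were not split by secretory share for this measure.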
